A study of Mus musculus with 25 samples.

Results

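The chemokine ligand genes of this series were followed from cultured liver progenitors to sorted tumour and stromal cells. Members were all genes of the count table whose symbol began with Ccl, Cxcl, Cx3cl or Xcl followed by a number and at most 1 letter, without Cxcl12, which gave 38 genes of 24984. The 25 libraries fell into 7 groups. Cultured cells gave 9 libraries, with 3 each of BMEL control cells (labelled as carrying an empty vector, called BMEL WT), RasLOW and RasHIGH cells. BMEL cells are a bipotential liver progenitor line taken from an embryo of a C57B/6_C3H mouse, and the line used here was derived from 1 clone. RasLOW and RasHIGH cells carry human H-Ras G12V together with a fluorescent protein on the same transcript and were sorted for weak or strong fluorescence, with overlapping gates. Sorted cells gave 16 libraries from 4 athymic nude mice, which lack a normal thymus and so most mature T cells. The animals had received BMEL-Ras cells in the liver, and from each mouse the liver tumour and the peritoneal tumour were split by green fluorescence into positive cells, called tumour cells, and negative cells, called stroma. The labels do not say which Ras population each mouse received, and they give no age for the animals. Sorting on fluorescence places a tumour cell that has lost its marker in the stroma.

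Chemokines are small secreted proteins that steer migrating cells through receptors coupled to G proteins. CC and CXC ligands are named for the spacing of their first cysteines, Xcl1 has a single such cysteine, and Cx3cl1 is made as a protein anchored in the membrane that can also be shed. In tumours and inflamed tissue, Ccr2 ligands draw monocytes, Cxcr2 ligands draw neutrophils, Cxcr3 ligands are induced by interferon, and Ccr3 ligands draw eosinophils.

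Sequence was looked at in the 250 bases before the annotated start of each gene (RefSeq, build GRCm38.p6), which the table held for 26 of the 38 members. The NF-kappaB motif (searched by its common degenerate form on both strands) was found in 7 members, Ccl1, Ccl9, Ccl20, Cxcl1, Cxcl2, Cxcl3 and Cxcl10, which was 26.9% of members with a promoter against 8.23% of 27025 genes with one. The AP-1 motif TGANTCA, also searched on both strands, was found in 4 members (15.4%) against 7.82% of genes, and in Ccl9 and Cxcl10 it stood apart from the NF-kappaB matches. These matches are letters in a window and were not tested as binding sites. The promoters below are those of Cxcl1, Cxcl2 and Cxcl3, neighbouring genes that share the same run of letters, of which Cxcl1 passed the test between stromal sites and Cxcl2 and Cxcl3 did not, of Ccl20, the leading ligand of BMEL WT cells, and of Cx3cl1, the leading ligand of Ras cells, where no match to either motif was found. Capitals mark the NF-kappaB match. The windows are chr5:90890995-90891244 for Cxcl1, chr5:90903649-90903898 for Cxcl2, chr5:90785851-90786100 for Cxcl3, chr1:83116516-83116765 for Ccl20 and chr8:94771930-94772179 for Cx3cl1, all on the plus strand.
Cxcl1: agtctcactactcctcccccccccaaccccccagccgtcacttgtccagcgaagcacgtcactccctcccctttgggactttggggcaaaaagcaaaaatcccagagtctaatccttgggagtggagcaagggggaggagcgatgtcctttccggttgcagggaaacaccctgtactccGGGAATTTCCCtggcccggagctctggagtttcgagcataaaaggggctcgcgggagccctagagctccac
Cxcl2: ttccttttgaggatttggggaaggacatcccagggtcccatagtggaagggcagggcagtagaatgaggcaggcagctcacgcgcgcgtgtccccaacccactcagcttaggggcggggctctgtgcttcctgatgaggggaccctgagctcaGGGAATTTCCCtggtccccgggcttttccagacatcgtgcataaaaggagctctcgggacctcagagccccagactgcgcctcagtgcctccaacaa
Cxcl3: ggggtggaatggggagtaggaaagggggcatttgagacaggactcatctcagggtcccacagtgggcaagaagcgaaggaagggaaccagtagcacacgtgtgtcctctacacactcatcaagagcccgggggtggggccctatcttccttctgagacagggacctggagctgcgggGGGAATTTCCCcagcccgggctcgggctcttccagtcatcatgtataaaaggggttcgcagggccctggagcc
Ccl20: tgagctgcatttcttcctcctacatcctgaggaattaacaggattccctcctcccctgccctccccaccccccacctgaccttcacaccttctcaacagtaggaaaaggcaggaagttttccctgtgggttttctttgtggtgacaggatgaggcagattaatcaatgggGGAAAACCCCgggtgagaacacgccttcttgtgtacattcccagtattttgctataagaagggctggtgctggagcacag
Cx3cl1: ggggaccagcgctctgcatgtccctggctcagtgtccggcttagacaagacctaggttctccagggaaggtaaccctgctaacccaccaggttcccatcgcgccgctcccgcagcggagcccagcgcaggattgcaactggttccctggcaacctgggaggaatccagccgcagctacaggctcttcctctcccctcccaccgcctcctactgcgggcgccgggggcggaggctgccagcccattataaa

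Total counts ran from 20818989 to 51241336 per library, so that 3 counts were worth between 0.0572 and 0.143 CPM. Levels below are in CPM, a gene's counts scaled to library size after TMM normalization. Correlations between replicates lay between 0.974 and 0.996. The labelled sources were checked against marker lists. Pan-leukocyte markers summed to 4324 to 7786 CPM in stroma, against 45.9 to 166 CPM in tumour cells. The keratin Krt8 reached 3116 to 5330 CPM in tumour cells, where stroma held 272 to 648 CPM. Epcam, which was fixed as an epithelial marker, was at or under 0.127 CPM in tumour cells, below the 3.13 to 6.57 CPM of stroma, against its label. The peritoneal tumour cells of mouse 1 stood apart, with 175 CPM of summed macrophage markers against 22.5 to 31.8 CPM in the other 3 animals. Their fibroblast sum (1442 against 211 to 321 CPM), neutrophil sum (59.2 against 6.91 to 8.67 CPM) and pan-leukocyte sum (166 against 45.9 to 83.4 CPM) were higher too. The peritoneal stroma of mouse 1 stood apart as well, with 3074 CPM of summed neutrophil markers against 554 to 613 CPM. Counts of calls are given with and without these libraries, and so are the named values that moved by over 1.5-fold without them. In bulk libraries, fewer cells of a type and less RNA per cell cannot be told apart.

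Most of the family was stromal. In all, 27 members passed the test in at least 1 comparison and are described with their values, 5 had no counts in any library (Ccl19, Ccl21a, Ccl21b, Ccl21c and Ccl27b, of which the Ccl21 and Ccl27 copies are near-identical and could lose shared reads), and 6 had counts without passing any test. Cultured cells expressed a short list, mainly Cx3cl1, Ccl20, Cxcl1 and Ccl9. In tumour cells Cx3cl1 and Cxcl1 led, while stroma held high levels of Cxcl2, Ccl6, Ccl24, Cxcl1, Cxcl14 and Ccl2.

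**Figure D1:**
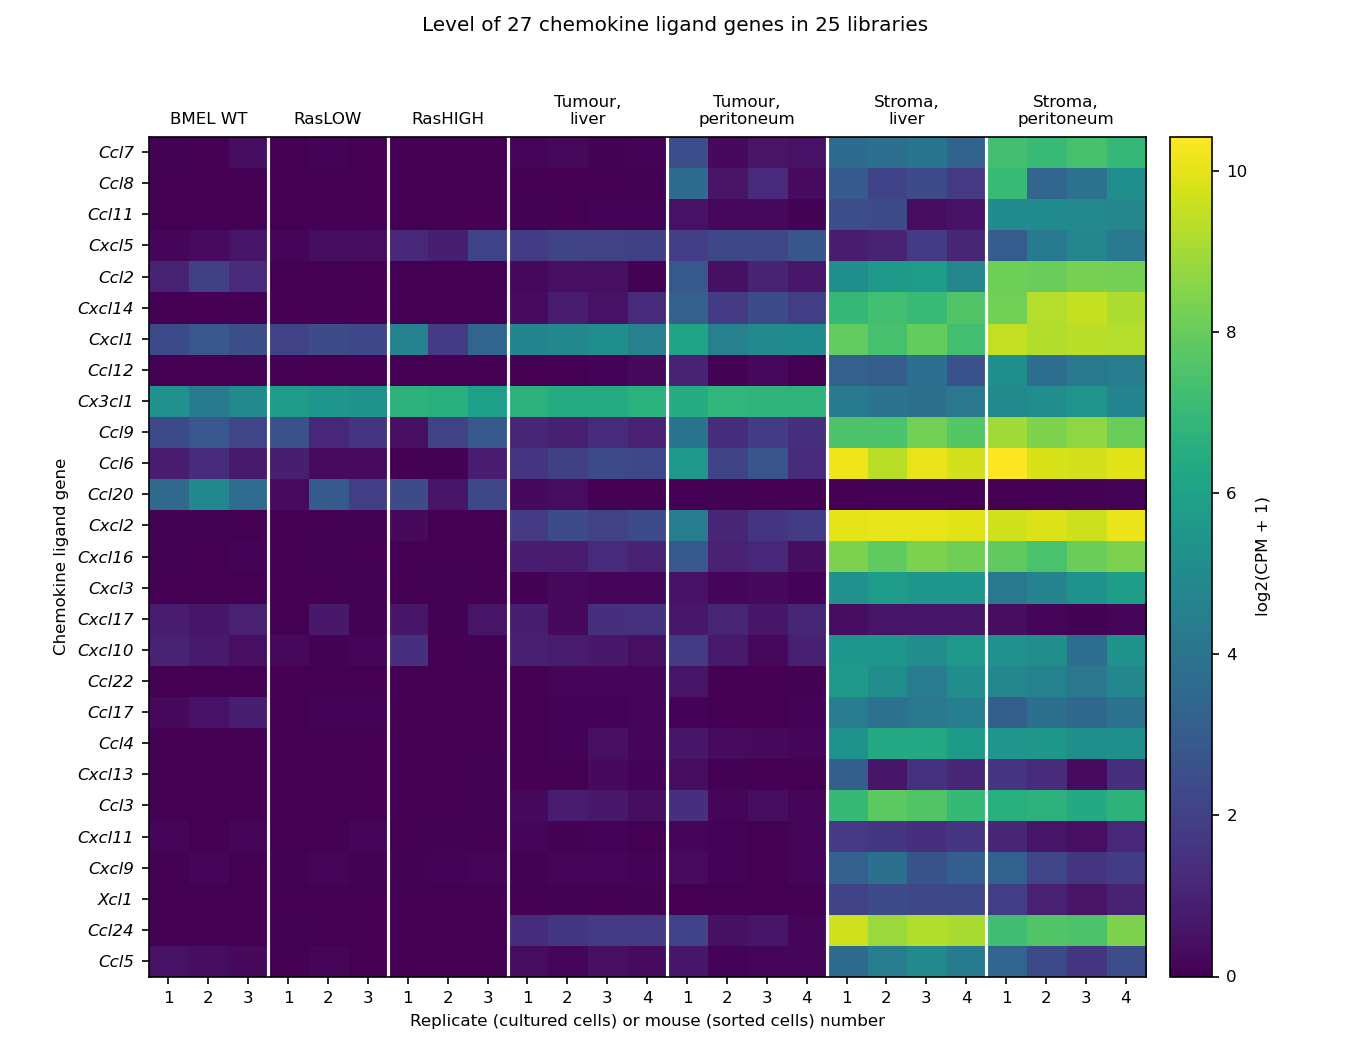
Level of the 27 chemokine ligand genes that passed the test in at least 1 comparison (rows, ordered by the site difference in stroma) in each of the 25 libraries (columns), as log2(CPM + 1) on a colour scale from dark (0) to yellow. Stroma is bright for most genes, Cx3cl1 is bright in cultured Ras cells and tumour cells, Ccl20 is seen in cultured cells, and the peritoneal tumour library of mouse 1 is brighter than its neighbours for Ccl6, Ccl8, Ccl2 and Cxcl2.

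The first question was which of the sorted compartments carried each ligand. In liver tumours, 27 members could be tested, of which 22 were lower and 2 were higher in tumour cells than in stroma (edgeR quasi-likelihood test, adjusted p under 0.05), and the median log2 difference was -7.22 against 0.0036 over all genes tested. Of all genes tested, 77.8% were called in this comparison, 39.4% lower and 38.4% higher. In peritoneal tumours, 26 members could be tested, of which 22 were lower and 2 higher, against 37.1% and 39.5% of all genes (76.6% in either direction). The median log2 difference was -6.35 there, or -6.07 with Xcl1, which had no counts in peritoneal tumour cells, set at its bound, against 0.0699 over all genes. Without the peritoneal tumour library of mouse 1, 24 were lower and 2 higher of 28 that could then be tested, and without the peritoneal stroma of mouse 1, 21 were lower and 2 higher of 26. Leaving out that tumour library moved the peritoneal log2 difference of 15 members by over 1.5-fold, each further below 0.

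The stromal ligands act on several receptor classes. Ccl6 and Ccl9, ligands of Ccr1 that are made by myeloid cells, and Ccl3 and Ccl4, known as macrophage inflammatory proteins, were all lower in tumour cells at both sites. Ccl6 lay at 1155, 654, 1081 and 828 CPM in liver stroma and at 2.07, 2.96, 4.07 and 3.85 CPM in liver tumour cells of mice 1 to 4. In the peritoneum it lay at 1376, 887, 839 and 957 CPM in stroma and at 45.5, 3.43, 5.70 and 1.51 CPM in tumour cells. The groups did not overlap at either site, and the highest tumour value came from mouse 1. The log2 difference was -8.17 ± 0.28 (SE, edgeR adjusted p = 1.52e-10) in liver and -6.08 ± 1.12 (edgeR adjusted p = 0.00104) in peritoneum, and without the peritoneal tumour library of mouse 1 the latter was -8.10 (edgeR adjusted p = 9.18e-07).

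Cxcl2, a neutrophil attractant acting on Cxcr2, was among the most abundant stromal ligands. It lay at 1033, 1045, 1040 and 966 CPM in liver stroma and at 2.45, 4.15, 3.15 and 4.39 CPM in liver tumour cells. In peritoneal stroma it lay at 825, 950, 798 and 1128 CPM, against 20.2, 1.19, 2.0 and 2.5 CPM in tumour cells. Groups were far apart in every animal, with log2 differences of -8.17 ± 0.19 (edgeR adjusted p = 8.53e-12) in liver and -7.07 ± 1.03 (edgeR adjusted p = 0.00026) in peritoneum, the latter -8.93 (edgeR adjusted p = 3.58e-08) without the tumour library of mouse 1. Cxcl3, a close relative on the same receptor, lay between 37.4 and 52.4 CPM in liver stroma and between 0.0450 and 0.167 CPM in liver tumour cells. The Ccr4 ligands Ccl17 and Ccl22, the interferon-induced Cxcr3 ligands Cxcl9 and Cxcl10, the eosinophil attractant Ccl24, the membrane-anchored Cxcr6 ligand Cxcl16 and Ccl5 were likewise lower in tumour cells at both sites, with log2 differences from -8.60 (Ccl22 in liver) to -4.56 (Ccl5 in peritoneum, -5.67 without the tumour library of mouse 1). Cxcl11 and Cxcl13, the B cell attractant, were tested in liver only among these contrasts and were lower in tumour cells by 5.18 and 5.43 on the log2 scale, and Ccl11, the eotaxin, was tested in peritoneum only, with a log2 difference of -7.14 ± 0.40 (edgeR adjusted p = 1.69e-06, and -7.83 without the tumour library of mouse 1). Xcl1 was called with no counts in any peritoneal tumour library and was at least 11.7-fold lower than in stroma (edgeR adjusted p = 0.0015).

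Expressed as a share of the stromal level in the same animal, most stromal ligands sat near the marker genes of other cells. The pan-leukocyte list had a median share of 0.299% to 0.473% in liver tumour cells and of 0.341% to 2.65% in peritoneal tumour cells, the highest in mouse 1. Of the 22 members lower in tumour cells, 17 in liver and 16 in peritoneum had a median share under 1% over the 4 animals. The others were Ccl5, Cxcl1, Cxcl10, Cxcl11 and Cxcl13 in liver and Ccl5, Ccl8, Cxcl1, Cxcl5, Cxcl9 and Cxcl10 in peritoneum. The shares of Cxcl2 were between 0.237% and 0.455% in liver and between 0.125% and 2.45% in peritoneum, again highest in mouse 1. For the ligands under 1%, the tumour share was of the same order as the medians of the marker lists. Whether it followed them from animal to animal, and the part of stromal RNA in it, were not tested. In all 4 peritoneal tumours, Ccl5 (2.05% to 5.47%), Cxcl10 (1.36% to 6.75%), Cxcl1, Cxcl5 and Ccl8 had shares above the pan-leukocyte and fibroblast medians. Ccl8, a Ccr8 ligand in mice, had a share between 0.613% and 10.8%, from 11.3, 0.459, 1.47 and 0.221 CPM in tumour cells and 134, 9.43, 13.6 and 36.0 CPM in stroma. Its groups overlapped, and its call in peritoneum (log2 difference -3.75 ± 1.30, edgeR adjusted p = 0.0264) was lost when any 1 of 4 libraries was left out, the tumour cells of mouse 2, 3 or 4 or the stroma of mouse 1, with edgeR adjusted p-values from 0.0558 to 0.0954. Without the tumour library of mouse 1 it was -5.90 (edgeR adjusted p = 0.0015), and without the stroma of mouse 1 it was -2.46.

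**Figure D2:**
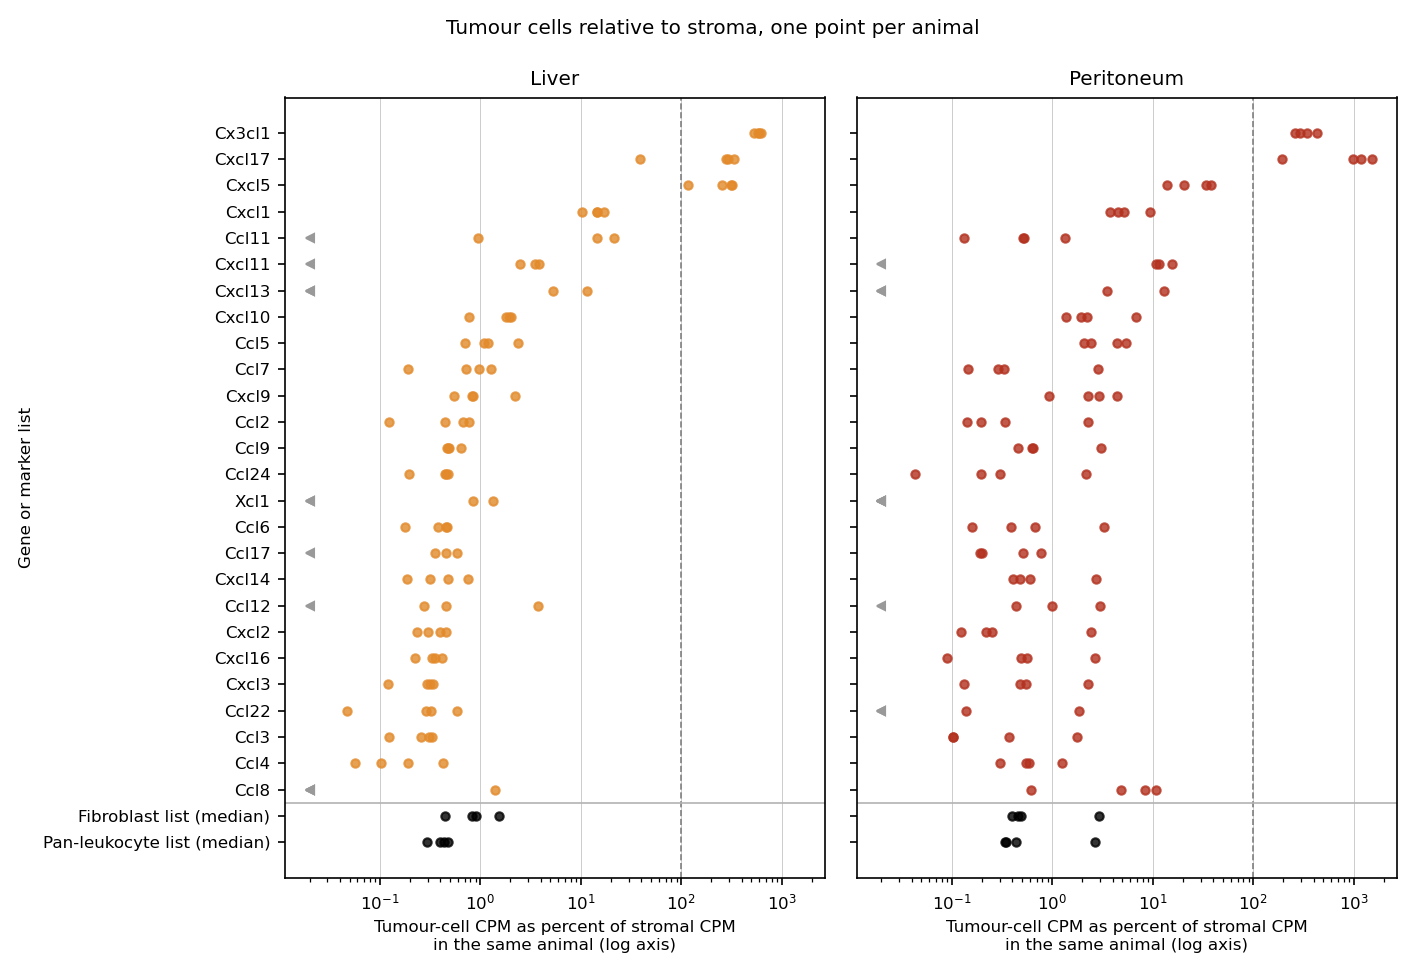
Tumour-cell CPM as a percent of stromal CPM in the same animal, on a log axis, for 26 ligands and for the median of 2 marker lists (black), with 1 point per animal in liver (left) and peritoneum (right). Grey triangles stand for animals with no counts in tumour cells, the dashed line marks equal levels, Cx3cl1 lies above it in every animal at both sites, Cxcl5 in liver and Cxcl17 in peritoneum, and most ligands lie near the marker lists.

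Cx3cl1, the membrane ligand of Cx3cr1, was the clearest ligand of tumour cells. It lay at 102, 83.3, 84.9 and 99.6 CPM in liver tumour cells and at 19.2, 14.5, 13.6 and 16.7 CPM in liver stroma. Peritoneal tumour cells held 86.5, 115, 108 and 108 CPM and peritoneal stroma 29.3, 33.6, 42.0 and 25.1 CPM. No stromal library reached the lowest tumour library, and tumour cells were higher in all 4 animals at each site. Levels were 5.81-fold higher in liver tumour cells (log2 difference 2.54 ± 0.13, edgeR adjusted p = 4.12e-09) and 3.44-fold higher in peritoneal tumour cells (1.78 ± 0.17, edgeR adjusted p = 1.95e-05). Stroma held 16% to 18.8% of the tumour level of Cx3cl1 in liver, beside 13.3% to 15.4% for Krt8. In peritoneum the stromal share was 23.3% to 38.7%, beside 6.18% to 11.5% for Krt8. How much of the stromal level came from tumour cells was not tested.

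Cxcl5, a neutrophil attractant of epithelial cells acting on Cxcr2, changed sides between sites. Liver tumour cells held 2.52, 3.43, 3.09 and 2.96 CPM and liver stroma 0.805, 1.07, 2.66 and 1.16 CPM. In the peritoneum, tumour cells held 2.77, 3.84, 3.68 and 5.84 CPM and stroma 7.26, 18.6, 26.6 and 17.1 CPM. Stroma was below the tumour cells in liver, with 1 overlapping library, and above them in peritoneum without overlap. The log2 difference of tumour cells against stroma was 1.09 ± 0.35 in liver (edgeR adjusted p = 0.0126) and -2.01 ± 0.39 in peritoneum (edgeR adjusted p = 0.00139).

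Cxcl17, a mucosal chemokine, was low everywhere but leaned to tumour cells. It lay at 0.833, 0.195, 1.62 and 1.88 CPM in liver tumour cells and at 0.295, 0.498, 0.553 and 0.561 CPM in liver stroma, which overlapped (log2 difference 1.25 ± 0.56, edgeR adjusted p = 0.0596). In peritoneum, tumour cells held 0.591, 1.13, 0.534 and 1.18 CPM and stroma 0.306, 0.0952, 0.0350 and 0.119 CPM, which did not overlap (2.68 ± 0.57, edgeR adjusted p = 0.0023, and 3.43 without the stroma of mouse 1). The stromal values of mice 2, 3 and 4 came from 3 counts or fewer.

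Cxcl1, another neutrophil attractant on Cxcr2, was stromal yet also present in tumour cells. It lay at 241, 168, 247 and 154 CPM in liver stroma, at 24.9, 28.4, 35.6 and 22.5 CPM in liver tumour cells, at 715, 593, 658 and 619 CPM in peritoneal stroma and at 67.3, 22.6, 29.9 and 32.3 CPM in peritoneal tumour cells. Stroma was higher in each of the 8 pairs, 7.22-fold in liver (log2 difference -2.85 ± 0.19, edgeR adjusted p = 5.01e-08) and 15.9-fold in peritoneum (-3.99 ± 0.34, edgeR adjusted p = 1.31e-05). Tumour cells held 10.3% to 16.9% of the stromal level in liver and 3.80% to 9.40% in peritoneum. The pan-leukocyte medians were lower, at 0.299% to 0.473% and 0.341% to 2.65%. The highest single marker of that list held 10.2% to 17.0% and 8.26% to 19.4%, ranges that overlap those of Cxcl1. Ccl25 and Ccl27a, ligands of gut and skin homing receptors, lay between 0.478 and 3.61 CPM in all sorted libraries and did not pass the test between the compartments at either site.

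Stroma of the same mice was then compared between liver and peritoneum. Of 27 members tested, 10 were higher in peritoneal stroma and 6 in liver stroma (edgeR quasi-likelihood test, adjusted p under 0.05), while 18.5% and 14.9% of all genes were called in these directions. With the mouse as a block, 7 were higher in liver and 10 in peritoneum, with 15 calls shared with the fit without the block, where Ccl22 and Cxcl9 came in and Ccl17 was lost (edgeR adjusted p = 0.0156, 0.0355 and 0.0514). With that block 38.1% of all genes were called. The direction depended on the scale: relative to leukocyte genes, which lowered the median of all genes by 0.57 on the log2 scale, 14 members were higher in peritoneal stroma and 2, Ccl5 and Ccl24, in liver stroma, with 12 of the calls shared with the first split, while 66.4% of all genes were called on that scale. Without the peritoneal stroma of mouse 1, 7 were higher in liver and 10 in peritoneum. The fibroblast list summed to between 53482 and 81346 CPM in peritoneal stroma and to between 4120 and 8378 CPM in liver stroma, the pan-leukocyte list to between 4324 and 5228 and between 6508 and 7786 CPM, and the macrophage list overlapped between sites. The part of cell composition in the site differences was not tested.

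The Ccr2 ligands, which attract monocytes, were all higher in peritoneal stroma. Ccl2 lay at 279, 265, 310 and 302 CPM there and at 35.6, 46.9, 53.1 and 25.6 CPM in liver stroma, so that the groups were well apart. Its level was 7.37-fold lower in liver stroma (log2 difference -2.88 ± 0.21, edgeR adjusted p = 9.74e-06). Ccl7 lay at 159, 129, 167 and 123 CPM in peritoneal stroma and at 11.5, 13.0, 15.7 and 8.86 CPM in liver stroma, again without overlap (-3.60 ± 0.18, edgeR adjusted p = 2.5e-06). Ccl12, at 35.2, 12.5, 17.1 and 20.5 CPM against 8.13, 7.54, 13.2 and 5.13 CPM, overlapped in 1 library and differed less (-1.37 ± 0.35, edgeR adjusted p = 0.0134), though it was lower in liver in all 4 animals. Its call was lost in 1 of all settings tried.

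Ccl11, an eosinophil attractant known as eotaxin, lay at 32.6, 31.8, 29.0 and 27.6 CPM in peritoneal stroma and at 4.69, 4.23, 0.276 and 0.441 CPM in liver stroma. Liver stroma was low in every animal, and lowest in mice 3 and 4 (-3.65 ± 0.67, edgeR adjusted p = 0.00267). Ccl8 lay at 134, 9.43, 13.6 and 36.0 CPM in peritoneal stroma and at 6.68, 3.31, 4.15 and 2.29 CPM in liver stroma (-3.57 ± 0.81, edgeR adjusted p = 0.00789). The highest Ccl8 value belonged to the peritoneal stroma of mouse 1, the library with many neutrophil transcripts, and without it the log2 difference was -2.30 (edgeR adjusted p = 0.00609). Ccl2, Ccl7, Ccl11, Ccl12 and Ccl8 lie next to each other on chromosome 11 (mm9 coordinates chr11:81849073-81930301, 81.2 kb), and all 5 were higher in peritoneal stroma.

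The next chemokine neighbourhood on chromosome 11 (chr11:83339280-83478185, 138.9 kb) gave no common direction. Ccl5, an attractant of T and NK cells, was higher in liver stroma, at 11.5, 19.9, 30.1 and 18.8 CPM against 9.67, 3.95, 2.14 and 4.48 CPM (1.94 ± 0.43, edgeR adjusted p = 0.00688). Ccl3 lay at 127, 219, 193 and 125 CPM in liver stroma and at 94.2, 104, 82.4 and 107 CPM in peritoneal stroma, with all liver values above all peritoneal ones (0.73 ± 0.19, edgeR adjusted p = 0.015). Ccl9 went the other way, with 185, 177, 291 and 203 CPM in liver and 499, 337, 412 and 270 CPM in peritoneum, which overlapped in 1 pair of libraries (-0.87 ± 0.21, edgeR adjusted p = 0.0105). Among all settings tried, 3 lost the Ccl3 call and 2 lost that of Ccl9. Ccl6 differed by -0.17 ± 0.21 and Ccl4 by 0.60 ± 0.22 on the log2 scale, and neither passed the test (edgeR adjusted p = 0.574 and 0.0564).

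**Figure D3:**
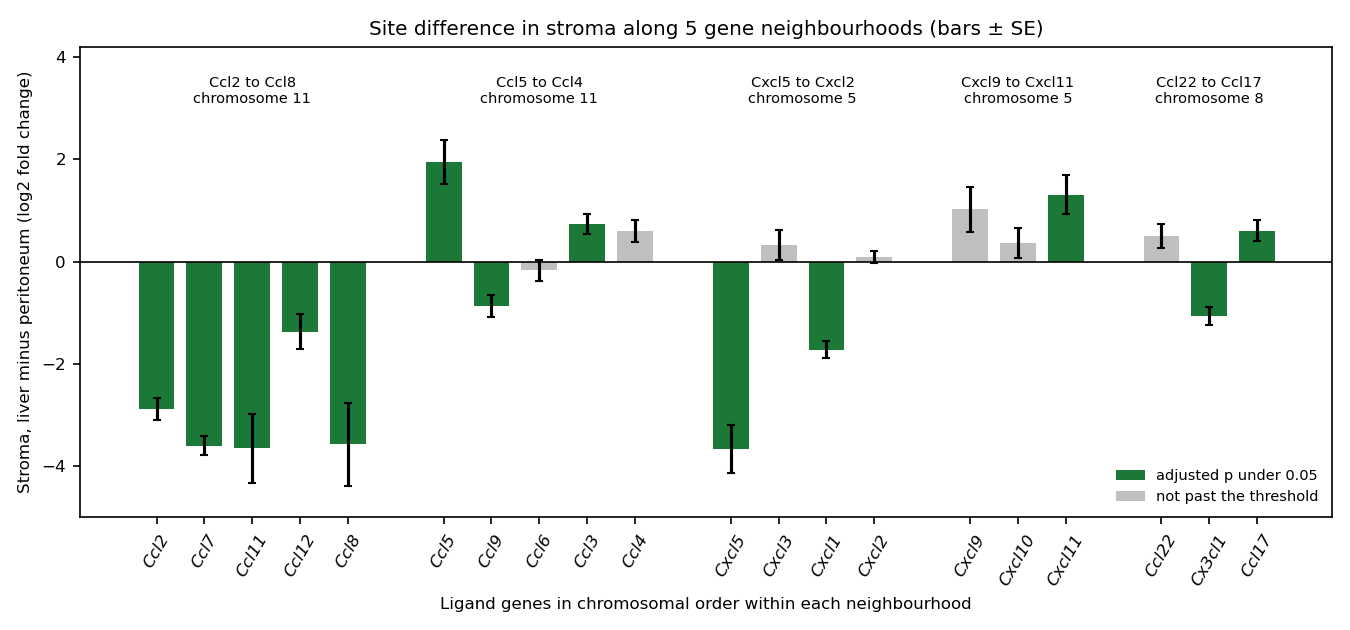
Log2 difference of liver against peritoneal stroma (bars, ± SE from the fit) for ligand genes in chromosomal order within 5 neighbourhoods. Green bars passed the test and grey bars did not, all 5 genes from Ccl2 to Ccl8 point down (higher in peritoneum), and the other neighbourhoods are mixed, with Cxcl5 at -3.66 and Cxcl1 at -1.72 beside Cxcl3 at 0.33 and Cxcl2 at 0.10.

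Among the neutrophil-attracting Cxcr2 ligands of chromosome 5 (chr5:91188325-91334935, 146.6 kb), Cxcl1 and Cxcl5 were higher in peritoneal stroma and Cxcl2 and Cxcl3 did not pass the test. Cxcl1 was 3.29-fold lower in liver stroma (log2 difference -1.72 ± 0.16, edgeR adjusted p = 4.72e-05) and Cxcl5 was 12.6-fold lower (-3.66 ± 0.47, edgeR adjusted p = 0.000307), from the values given above, without overlap for either. Cxcl2 differed by 0.10 ± 0.12 (edgeR adjusted p = 0.557) and Cxcl3 by 0.33 ± 0.30 (edgeR adjusted p = 0.438). Relative to leukocyte genes, the scale that shifted the median of all genes by -0.57, both values lay below 0. The promoters printed above for Cxcl1, Cxcl2 and Cxcl3 hold the same NF-kappaB match, 11 letters long when both overlapping matches are joined. The Cxcl5 promoter was not analysed here.

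Of the remaining ligands, Cxcl14, a CXC ligand of epithelia and fibroblasts with a debated receptor, lay at 294, 615, 733 and 564 CPM in peritoneal stroma and at 121, 153, 133 and 191 CPM in liver stroma, without overlap (-1.93 ± 0.26, edgeR adjusted p = 0.000452). Cx3cl1 was 2.09-fold lower in liver stroma than in peritoneal stroma (-1.06 ± 0.17, edgeR adjusted p = 0.00124). The stromal share of Krt8 was 13.3% to 15.4% in liver and 6.18% to 11.5% in peritoneum. The part of tumour cells in the stromal Cx3cl1 level was not tested. Ccl24, a Ccr3 ligand made by macrophages, was higher in liver stroma, at 813, 470, 593 and 546 CPM against 147, 194, 182 and 343 CPM (1.44 ± 0.26, edgeR adjusted p = 0.00256). So Ccl11 and Ccl24, which share the receptor Ccr3, differed in opposite directions by site.

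Xcl1, made by NK and T cells and acting on Xcr1 of cross-presenting dendritic cells, lay at 3.19, 4.16, 3.63 and 3.77 CPM in liver stroma and at 2.75, 0.952, 0.455 and 0.992 CPM in peritoneal stroma (1.47 ± 0.45, edgeR adjusted p = 0.0302). The NK cell markers summed to between 25.6 and 44.5 CPM in liver stroma and to between 8.13 and 12.3 CPM in peritoneal stroma. The T cell markers went the other way, with 2.55 to 3.97 CPM in liver stroma and 9.36 to 21.3 CPM in peritoneal stroma. Which cells carried Xcl1 was not tested. Cxcl11 lay at 2.33, 2.24, 1.69 and 2.16 CPM against 1.15, 0.524, 0.350 and 1.27 CPM (1.31 ± 0.39, edgeR adjusted p = 0.0266). Ccl17, a Ccr4 ligand of dendritic cells, lay at 20.2, 14.2, 16.9 and 20.8 CPM against 7.95, 13.6, 10.1 and 14.4 CPM, with overlap (0.61 ± 0.20, edgeR adjusted p = 0.0426). These calls were close to the threshold: leaving out 1 library lost the call of Xcl1 in 5 of 8 cases, of Cxcl11 in 4 of 8 and of Ccl17 in 5 of 8, with edgeR adjusted p-values up to 0.0773, 0.072 and 0.118. Without the peritoneal stroma of mouse 1, the highest peritoneal library for Xcl1, its log2 difference was 2.15 (edgeR adjusted p = 0.000861). Ccl22, the other Ccr4 ligand, lay at 47.4, 34.2, 20.6 and 33.4 CPM in liver stroma and at 27.1, 22.8, 16.5 and 26.8 CPM in peritoneal stroma.

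Further ligands were abundant in stroma at both sites. Cxcl16 lay at 331, 235, 328 and 284 CPM in liver stroma and at 238, 170, 271 and 330 CPM in peritoneal stroma. Cxcl10 lay at 43.6, 43.2, 34.1 and 45.7 CPM in liver stroma and at 38.2, 34.9, 12.6 and 40.0 CPM in peritoneal stroma, and Cxcl9 at 8.23, 13.2, 5.46 and 7.66 against 8.48, 3.57, 2.03 and 2.5 CPM. The sites overlapped for each of these. Cxcl13 lay at 7.94, 0.533, 1.80 and 1.20 CPM in liver stroma, where mouse 1 was highest, and at 2.14, 1.52, 0.245 and 1.71 CPM in peritoneal stroma. Ccl4 lay at 39.8, 81.3, 77.6 and 49.9 CPM against 42.5, 44.5, 35.9 and 36.5 CPM, and Cxcl3 at 37.4, 52.4, 44.1 and 43.2 against 17.8, 24.7, 39.6 and 55.1 CPM. Cxcl9, Cxcl10, Cxcl13, Cxcl16, Ccl22, Ccl25 and Ccl27a, beside Cxcl2, Cxcl3, Ccl4 and Ccl6, did not pass the test between the stromal sites.

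Tumour cells of the same mice were then compared between sites. Of 15 members tested, 1 was lower in liver tumour cells and none was higher, while 1.87% and 1.33% of all genes were called in these directions, 3.2% in all (edgeR quasi-likelihood test). At an unadjusted p under 0.05 there were 4 such members. DESeq2 called 3 (8.63% of all genes), without the peritoneal tumour library of mouse 1 edgeR called 1 in each direction, and with the mouse as a block edgeR called 0 (0.78% of all genes). The 1 call was Cxcl14, at 0.225, 0.725, 0.419 and 1.43 CPM in liver tumour cells and at 8.05, 2.48, 4.38 and 2.72 CPM in peritoneal tumour cells. The groups did not overlap (-2.68 ± 0.57, edgeR adjusted p = 0.0367, or 0.117 with the mouse as a block). The call was lost without the liver tumour cells of mouse 1, 2 or 3 or the peritoneal tumour cells of mouse 3 (edgeR adjusted p from 0.0585 to 0.124). The fibroblast list summed to 40.1 to 61.5 CPM in liver tumour cells and to 211 to 1442 CPM in peritoneal tumour cells. The share of the stromal level that tumour cells held was 0.186% to 0.75% for Cxcl14 in liver and 0.404% to 2.74% in peritoneum. For the median of the fibroblast list it was 0.446% to 1.52% and 0.402% to 2.94%. The part of fibroblast RNA in the Cxcl14 difference was not tested. Cx3cl1 and Cxcl1 did not pass the test between tumour sites, with log2 differences of -0.17 ± 0.10 and -0.45 ± 0.30 (edgeR adjusted p = 0.383 and 0.436).

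Whether the site difference itself differed between stroma and tumour cells was tested as an interaction over the 16 sorted libraries. Of 28 members, 3 passed, all with a site difference more strongly toward peritoneum in stroma, while 6.79% of all genes were called in this direction and 7.5% in the other. The interaction was -3.15 ± 0.55 for Cxcl5 (edgeR adjusted p = 0.00139), -1.19 ± 0.38 for Cxcl1 (edgeR adjusted p = 0.0476) and -0.81 ± 0.21 for Cx3cl1 (edgeR adjusted p = 0.0184). None of these 3 passed the test between the sites in tumour cells, while each was higher in peritoneal stroma. The Cxcl1 call was lost in 14 of 16 fits with 1 library left out, with edgeR adjusted p-values from 0.0533 to 0.098, whereas Cxcl5 and Cx3cl1 kept theirs in all 16 (largest edgeR adjusted p = 0.00457 and 0.0412). Among the other settings tried, 2 lost the Cx3cl1 call (largest edgeR adjusted p = 0.0717) and 0 lost that of Cxcl5. Without the peritoneal tumour library of mouse 1 the edgeR adjusted p of Cxcl1 was 0.000359.

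**Figure D4:**
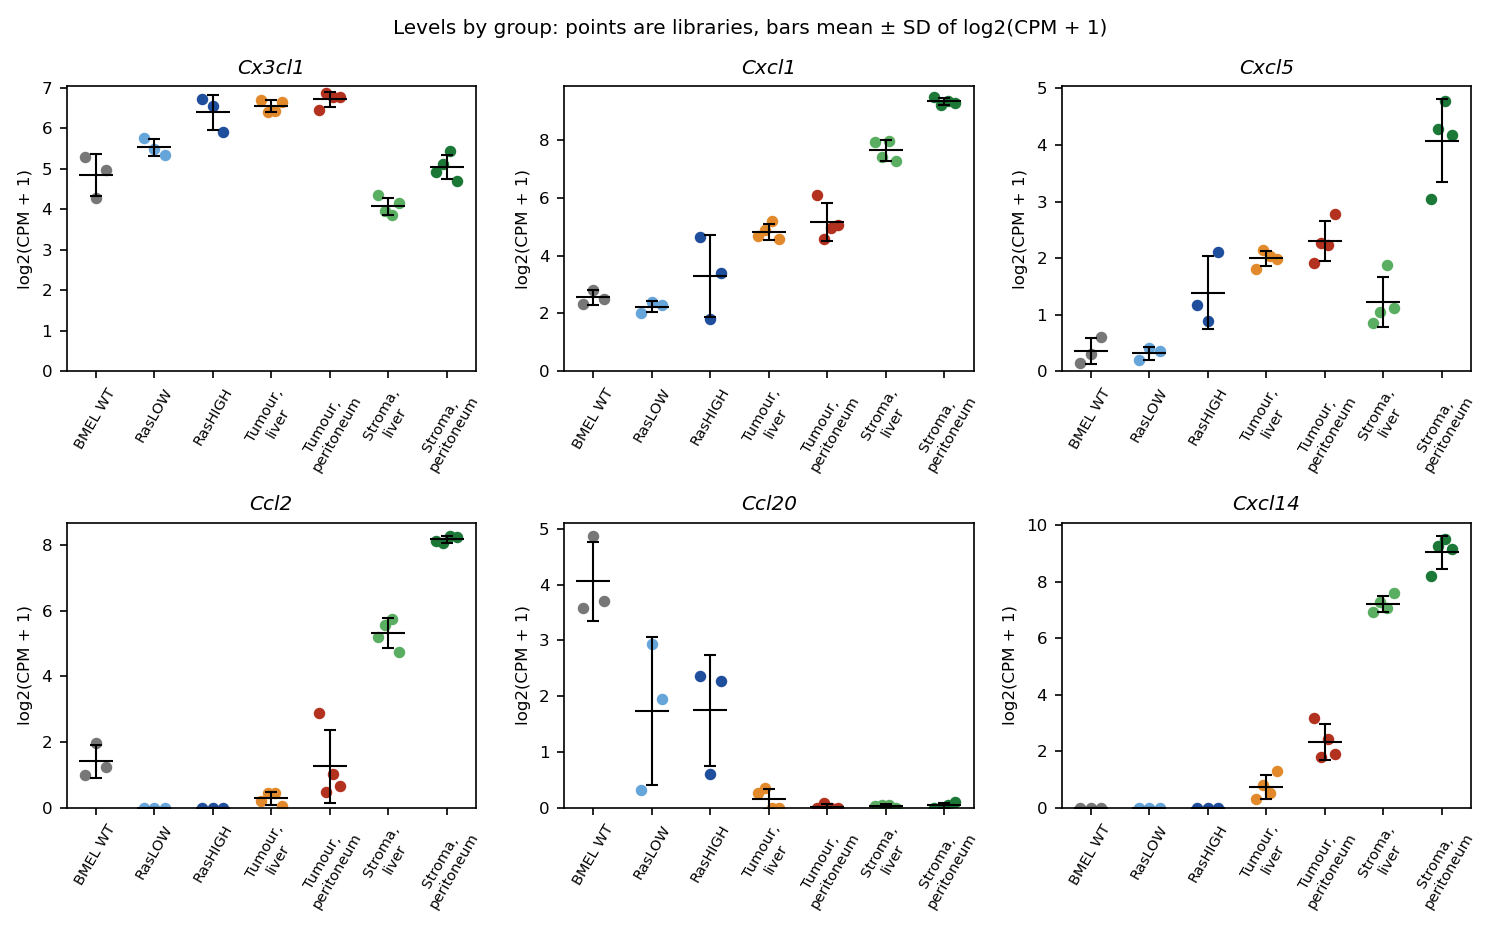
Levels of 6 ligands as log2(CPM + 1) in the 7 groups, with 1 point per library and bars for the mean ± SD on that scale. Cx3cl1 is high in RasHIGH and tumour cells, Cxcl1, Ccl2 and Cxcl14 are highest in peritoneal stroma, Cxcl5 crosses between tumour and stroma by site, and Ccl20 is seen in cultured cells but hardly in any sorted library.

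In cultured cells, few ligands were high enough to test. Between RasLOW and BMEL WT cells 10 could be tested and 1, Ccl2, was lower in RasLOW, while 5.96% of all genes were called, 4.05% lower and 1.92% higher. Between RasHIGH and BMEL WT cells 11 could be tested, of which 2 were lower and 2 higher, while 11.7% and 10.9% of all genes were called. Ccl2 lay at 1.0, 2.94 and 1.37 CPM in BMEL WT cells and had no counts in any RasLOW or RasHIGH library. It was at least 14.6-fold lower in RasLOW (edgeR adjusted p = 0.0185) and at least 13.2-fold lower in RasHIGH (edgeR adjusted p = 0.0065), against a floor of 3 counts per library. The RasLOW call was lost without BMEL WT replicate 2 or 3 or RasLOW replicate 3 (edgeR adjusted p from 0.0534 to 0.0579), where the counts of RasLOW stayed at 0.

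Ccl20, the Ccr6 ligand known from epithelia, lay at 11, 28.2 and 12.1 CPM in BMEL WT, at 0.249, 6.64 and 2.87 CPM in RasLOW and at 4.16, 0.513 and 3.81 CPM in RasHIGH. All Ras libraries were below all control libraries. It was 6.18-fold lower in RasHIGH (-2.63 ± 0.71, edgeR adjusted p = 0.0365), while the RasLOW difference of -2.39 ± 0.91 did not pass (edgeR adjusted p = 0.18). Leaving out any BMEL WT library or RasHIGH replicate 3 lost the RasHIGH call, with edgeR adjusted p-values from 0.0654 to 0.122. In sorted tumour cells Ccl20 was at 0 to 0.279 CPM, and in stroma at 0 to 0.0794 CPM, so that the leading ligand of BMEL WT cells was near the counting floor in all 16 sorted libraries.

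Cx3cl1 rose in RasHIGH cells. It lay at 37.9, 18.5 and 30.3 CPM in BMEL WT, at 52.8, 44.0 and 39.3 CPM in RasLOW and at 104, 92.1 and 58.9 CPM in RasHIGH, so that the 3 groups did not overlap. RasHIGH was 2.86-fold above BMEL WT (1.52 ± 0.31, edgeR adjusted p = 0.0142), a call kept with any 1 library left out. The RasLOW difference of 0.61 ± 0.27 did not pass (edgeR adjusted p = 0.238), nor did that of RasHIGH against RasLOW, 0.91 ± 0.24 (edgeR adjusted p = 0.231). The tumour-cell levels of 83.3 to 115 CPM stood beside those of RasHIGH cells, without a test across the separate preparations.

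Cxcl5 lay at 0.104, 0.239 and 0.517 CPM in BMEL WT, at 0.142, 0.325 and 0.283 CPM in RasLOW and at 1.24, 0.855 and 3.32 CPM in RasHIGH. RasHIGH was above all other cultures (2.61 ± 0.73 against BMEL WT, edgeR adjusted p = 0.0412), although the call was lost with any BMEL WT library or RasHIGH replicate 2 or 3 left out (edgeR adjusted p from 0.05 to 0.136). Cxcl1 lay at 4.04, 6.09 and 4.62 CPM in BMEL WT, at 3.05, 4.26 and 3.84 CPM in RasLOW and at 23.8, 2.52 and 9.65 CPM in RasHIGH, a spread within RasHIGH that spans the other groups, and it did not pass any culture comparison. Between RasHIGH and RasLOW cells 8 members could be tested and edgeR called 0, while 0.0752% of all genes were called, 0.0585% higher and 0.0167% lower. At an unadjusted p under 0.05 there were 3, Cxcl5, Cx3cl1 and Cxcl1, all higher in RasHIGH, and DESeq2 called 1 member (3.01% of all genes). BMEL WT replicates 1 and 2 were run on another lane than the other 7 cultured libraries. Within the shared lane, BMEL WT replicate 3 was on the same side of all 3 RasHIGH libraries for Ccl2, Ccl20, Cx3cl1 and Cxcl5 as the group means, and no test can be made there.

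Between genes, levels were compared per kilobase of exon (RPKM, from mm9 gene models), which ranked 37 of the 38 members. In BMEL WT cells Ccl20 led with a mean of 12 RPKM, before Cx3cl1 at 7.79 and Cxcl1 at 5.16 RPKM, and the SDs of Ccl20 and Cx3cl1 (6.77 and 2.64 RPKM, n = 3) overlapped. In RasLOW and RasHIGH cells Cx3cl1 led with 12.2 and 23.0 RPKM. In tumour cells Cxcl1 and Cx3cl1 led, with 29.2 ± 6.00 and 24.9 ± 2.63 RPKM (SD, n = 4) in liver and 39.9 ± 20.9 and 28.1 ± 3.32 RPKM in peritoneum, which did not differ beyond their spread. Liver stroma was led by Cxcl2 at 558 ± 20.1 RPKM, Ccl6 at 518 ± 129 RPKM and Ccl24 at 470 ± 114 RPKM, which overlapped in their SDs, and peritoneal stroma by Cxcl1 at 678 ± 55.7 RPKM, Ccl6 at 565 ± 137 RPKM and Cxcl2 at 506 ± 82.2 RPKM. Ccl2 and Ccl7 stood at 254 and 180 RPKM in peritoneal stroma.

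Among sorted cells, the receptors of these ligands were stromal as well. Of 18 signalling receptors, 15 could be tested in liver and 14 in peritoneum, and all of those were lower in tumour cells than in stroma. Of all genes, 39.4% in liver and 37.1% in peritoneum were called in this direction. All 10 pan-leukocyte markers were lower in tumour cells at both sites as well. Ccr2 lay between 295 and 505 CPM in stroma and Cx3cr1, the receptor of Cx3cl1, between 57.1 and 138 CPM, against 0.762 to 4.97 CPM of Cx3cr1 in tumour cells. Between the stromal sites 15 receptors could be tested, of which 5 were higher in liver (Ccr1, Ccr7, Cxcr2, Cxcr5 and Xcr1) and 1 in peritoneum (Cx3cr1, log2 difference -0.90 ± 0.17, edgeR adjusted p = 0.00321), beside 14.9% and 18.5% of all genes. The median log2 difference of these receptors was 0.76, and that of the pan-leukocyte markers, of which 9 of 10 were higher in liver stroma, was 0.55. Cxcr2, whose ligands Cxcl1 and Cxcl5 were higher in peritoneal stroma, was higher in liver stroma (0.79 ± 0.15, edgeR adjusted p = 0.00345), and Ccr2 did not pass the test between sites. Among 5 atypical receptors, which take up chemokines without G protein signalling, 1 was higher and 2 were lower in liver stroma, beside the same shares of all genes. Ackr3 was among the lower ones (-1.74 ± 0.12, edgeR adjusted p = 9.12e-06).

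The 6 members with counts that passed no test were Ccl25, Ccl27a, Ccl1, Ccl26, Ccl28 and Cxcl15. The last 4 were never high enough to test and reached at most 0.617 CPM in any library, for Ccl1 in the liver stroma of mouse 1. Ccl1 was at 0.276 to 0.617 CPM in liver stroma and 0.0701 to 0.535 CPM in peritoneal stroma, and had counts in 1 of 8 tumour-cell libraries, the peritoneal one of mouse 1. Ccl26 had counts in stroma only, at up to 0.333 CPM, which at this depth is a handful of reads.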

How the data were processed

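RNA was measured in 25 libraries (NuGEN Universal Plus mRNA-seq, HiSeq). The authors deposited raw counts per gene for each library, with 24984 genes. The study's methods name TopHat2, the Mm9 build and DESeq, while the submitters' processing notes list Bowtie 0.12.2 and other mouse builds. The counting program, its strand setting and its annotation are not given in the sources used here, so reads shared by overlapping genes or near-identical copies could be split or lost. Human transgene reads were not analysed here.

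Counts were tested in R 4.3.3 with the quasi-likelihood test of edgeR 4.0.16 (TMM normalization, filterByExpr with a minimum count of 10, the libraries of the groups compared, Benjamini-Hochberg adjustment over all genes tested), and adjusted p under 0.05 was called. DESeq2 1.42.0 was an alternative. CPM used TMM factors over all 25 libraries, and intervals of the form ± are SE for log2 differences and SD for levels. At the depths given, floors cover counting error only. The edgeR test was tried on simulated counts, and no simulation was run for the other steps. Mouse numbers pair sorted samples because they name the same animal, and the mean correlation of deviations was 0.225 between compartments in liver, 0.194 in peritoneum, 0.184 between stromal sites and -0.04 between tumour sites. Culture replicate numbers did not pair. The study's methods describe the libraries of cell lines and of sorted tumour cells as biologically independent.

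Values per library were given for members called in at least 1 comparison or with a group mean of at least 10 CPM, grouped by receptor, and the other members by range and count. The members and lists were chosen with earlier results of these data known. Positions and exon lengths came from an mm9 annotation (37 of 38 members) and promoters from RefSeq on GRCm38.p6. Alternatives were DESeq2, RLE normalization, no filter, 1 fit over all libraries, a block, the study's thresholds, leaving out libraries 1 at a time and, for stroma, scaling by the leukocyte list.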

Additional observations from a re-analysis of the deposited data

Results flagged for a closer look

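Dixon's critical value is passed by chance in about 1 in 20 groups of independent normal values. The groups here shared libraries and some held zeros, so that rate does not apply. Of 107 groups of 4 libraries examined, 16 (15%) had a library far from the other 3 (gap over range above Dixon's critical value). The peritoneal tumour cells of mouse 1 were the high library in 12 of these: Ccl6 at 45.5 CPM, Cxcl2 at 20.2 CPM, Ccl9 at 15.4 CPM, Ccl8 at 11.3 CPM, Ccl2 at 6.34 CPM, Cxcl16 at 6.31 CPM, Ccl7 at 4.54 CPM, Ccl24 at 3.23 CPM, Ccl3 at 1.68 CPM, Ccl12 at 1.06 CPM, Ccl5 at 0.528 CPM and Ccl22 at 0.497 CPM. The same library held 175 CPM of summed macrophage markers, against 22.5 to 31.8 CPM in the other peritoneal tumours. Its fibroblast sum (1442 against 211 to 321 CPM) and neutrophil sum (59.2 against 6.91 to 8.67 CPM) were higher too, and the part of these transcripts was not tested. Cxcl13 stood out at 7.94 CPM in the liver stroma of mouse 1, and Cxcl2 was low at 966 CPM in the liver stroma of mouse 4. Ccl20 at 0.0540 CPM in the peritoneal tumour cells of mouse 2 and Ccl8 at 0.0318 CPM in the liver tumour cells of mouse 4 were single libraries with counts under the floor of 3 counts beside libraries at 0.

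The site difference, liver minus peritoneum, differed between stroma and tumour cells by the interaction test for Cxcl5 (-3.15 on the log2 scale), Cxcl1 (-1.19) and Cx3cl1 (-0.81).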

How the results depend on the processing

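Of the values for single ligands, leaving out 1 library kept 656 on their side of the threshold with their direction, while 48 lost a call and 4 gained one. Left out 1 at a time, libraries gave 24 to 26 calls between compartments in liver, 23 to 26 in peritoneum, 13 to 17 between stromal sites, 0 to 2 between tumour sites (0 without the liver tumour cells of mouse 1, 2 or 3 or the peritoneal tumour cells of mouse 3), 0 to 3 for RasLOW against BMEL WT (0 without BMEL WT replicate 2 or 3 or RasLOW replicate 3, 3 without RasLOW replicate 2), 2 to 6 for RasHIGH against BMEL WT (2 without BMEL WT replicate 2 or 3), 0 for RasHIGH against RasLOW and 2 to 3 for the interaction. With 1 fit over all 25 libraries the stromal sites gave 10 calls in place of 16, tumour sites 4 in place of 1, RasLOW 2 in place of 1, RasHIGH against RasLOW 3 in place of 0, and the interaction 1 in place of 3. The shares of all genes moved too. In the same order they were 23.7%, 2.42%, 15.5%, 5.82% and 7.49%, against 33.4%, 3.2%, 5.96%, 0.0752% and 14.3% in the main fits. DESeq2 gave 3 between tumour sites, 2 for RasLOW, 1 for RasHIGH against RasLOW and 5 for the interaction. It called 8.63%, 11.9%, 3.01% and 16.8% of all genes there. Its adjusted p was not given for Cxcl2, Ccl2 and Ccl6 between compartments in peritoneum. Without a filter, tumour sites gave 2 calls (2.77% of all genes). With the study's thresholds on unadjusted p and fold, tumour sites gave 4, RasLOW 2 and RasHIGH against RasLOW 1 (3.52%, 4.4% and 2.12% of all genes). With the replicate block, tumour sites and RasLOW gave 0 calls (0.78% and 2.4% of all genes). The stromal sites gave 17 there and RasHIGH against BMEL WT 3 (38.1% and 17.9% of all genes). The Ccl20 call in RasHIGH was lost with that block (edgeR adjusted p = 0.0985). Scaling to leukocyte genes shifted the median of all genes by -0.57, and with it small positive stromal site differences fell below 0, those of Cxcl2 (-0.47), Cxcl16 (-0.38), Cxcl3 (-0.22), Cxcl10 (-0.19) and Ccl22 (-0.056). For the other settings the cause of the changes was not tested. Depth limits ligands near 0.0572 to 0.143 CPM, the worth of 3 counts.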

Other observations

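Ackr3, an atypical receptor that takes up chemokines, went against the signalling receptors. It lay between 123 and 182 CPM in liver tumour cells and between 35.5 and 52.2 CPM in liver stroma, with a log2 difference of 1.77 ± 0.14 (edgeR adjusted p = 3.44e-07), while in peritoneum tumour cells held 93.7 to 120 CPM and stroma 138 to 160 CPM (-0.36 ± 0.09, edgeR adjusted p = 0.00676). The interaction of site and compartment was -2.18 ± 0.19 (edgeR adjusted p = 5.99e-06). Pf4, a platelet and macrophage chemokine outside the naming rule, was lower in tumour cells at both sites and lay between 10.3 and 19.8 CPM in liver stroma and between 14.4 and 52.6 CPM in peritoneal stroma, with overlap (-1.34 ± 0.34, edgeR adjusted p = 0.014). Ccr1 was the 1 signalling receptor called in cultured cells, higher in RasHIGH than in BMEL WT cells (edgeR adjusted p = 0.00171).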
